A study of Rattus norvegicus with 16 samples.

Results

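The urea cycle enzymes of rat liver were described from 7 genes chosen by name, Nags, Cps1, Otc, Ass1, Asl, Arg1 and Oat, all of which were among the 22587 gene rows of the table. Liver RNA was sequenced from male Wistar-Wyoto rats aged 13 weeks that had lost both adrenal glands (ADREX) or had undergone sham surgery (SHAM). Each surgery was followed by 4 hours of ozone at 0.8 ppm or of air, which gave ADREX ozone libraries 81 to 84, ADREX air libraries 65 to 68, SHAM ozone libraries 17 to 20 and SHAM air libraries 1 to 4. The series asks how adrenal stress hormones regulate the liver after an acute ozone exposure. The surgery removes cortex and medulla together, so glucocorticoids and adrenaline are lost at once, and the labels name no hormone given to the ADREX rats. The labels do not state that each library is a separate animal, so p-values measure only the spread between libraries. The titles were followed for the groups, although the treatment field of the 4 ADREX air libraries reads ozone.

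The urea cycle turns ammonia, which is toxic to the brain, into urea for excretion, and in mammals the complete cycle runs mainly in hepatocytes near the portal vein. Nags makes N-acetylglutamate, the activator of Cps1, and Cps1 joins ammonia and bicarbonate to carbamoyl phosphate in mitochondria. Otc adds that group to ornithine to form citrulline. In the cytosol Ass1 joins citrulline to aspartate, Asl splits the product into arginine and fumarate, and Arg1 releases urea from arginine and restores ornithine. Oat, an ornithine aminotransferase found mainly in hepatocytes near the central vein, removes ornithine toward glutamate. Glucocorticoids and glucagon are known to raise urea cycle gene expression in liver.

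With limma, the main test used here, the members that passed in any comparison were Cps1, Ass1 and Asl, and the stretches of DNA just upstream of them are shown so that their letters can be set side by side. The sequences come from RefSeq (GRCr8) and cover the 250 bases before the transcript start used there, on the gene's own strand, with capitals marking matches to the motifs named next.
Cps1 promoter (GRCr8, chr9:76063613-76063862, plus strand): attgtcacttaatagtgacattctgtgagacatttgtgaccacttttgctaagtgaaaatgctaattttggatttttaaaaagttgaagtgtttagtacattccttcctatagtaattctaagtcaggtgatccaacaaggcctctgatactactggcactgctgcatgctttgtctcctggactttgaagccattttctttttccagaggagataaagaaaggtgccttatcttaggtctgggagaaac
Ass1 promoter (GRCr8, chr3:35149480-35149729, plus strand): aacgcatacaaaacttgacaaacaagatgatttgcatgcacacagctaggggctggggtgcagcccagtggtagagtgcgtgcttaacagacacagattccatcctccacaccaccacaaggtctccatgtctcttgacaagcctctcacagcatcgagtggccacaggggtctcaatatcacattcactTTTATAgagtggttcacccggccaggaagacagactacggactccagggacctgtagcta
Asl promoter (GRCr8, chr12:32295658-32295907, plus strand): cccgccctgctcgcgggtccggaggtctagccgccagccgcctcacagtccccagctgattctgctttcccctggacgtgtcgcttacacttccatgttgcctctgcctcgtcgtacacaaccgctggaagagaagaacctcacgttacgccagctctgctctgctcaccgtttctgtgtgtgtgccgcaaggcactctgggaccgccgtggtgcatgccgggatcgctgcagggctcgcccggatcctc
Letters were searched on both strands. Those marked were TATAAA for the TATA box, CCAAT for the box of that name and TGACG for the core of a cyclic AMP response element. AGAACA, for the core of a glucocorticoid receptor site, was marked too. Of these 3 stretches only that of Ass1 held any of the marked letters, a TATA box on the opposite strand at positions -60 to -55. Among 33469 rat stretches of the same length, 12.9% held the TATA box letters, 34% the CCAAT box, 18.2% the cyclic AMP core and 17.5% the receptor core. Entries were found for 6 of the 7 genes, all but Arg1. Among those 6, Oat alone held CCAAT, at positions -81 to -77 and -56 to -52, and none held the cyclic AMP or receptor core. GGGCGG for the GC box and TTGCNNAA (N for any base) for a C/EBP site were also searched but are not capitalised. Asl held a GC box on the opposite strand at positions -249 to -244, and Nags and Oat held GC boxes nearer the start. GC box letters were in 30.5% of the 33469 stretches. The C/EBP letters were in none of the 6 genes, beside 9.22% of all stretches. A match or its absence in this window is a description of its letters.

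The 16 libraries held 8372891 to 14096246 recovered reads, and every member had at least 376 reads in every library. Hepatocyte markers such as Alb and Apoa1 were present in all libraries, with summed levels of 101082 to 206022 reads per 1000000. Transcripts of neurons and oligodendrocytes were also present: the summed level of 25 markers was 891 to 5094 reads per 1000000 in ADREX ozone, 289 to 1258 in ADREX air, 83.7 to 3043 in SHAM ozone and 44.8 to 911 in SHAM air. Of the 24 of these markers that were tested, all 24 had a positive change in each of the 4 comparisons between 2 groups, and none passed. Their median log2 change was 2.04 to 2.11. For ozone, 9 (SHAM) and 10 (ADREX) of 24 had an unadjusted limma p under 0.05, beside 18.4% and 17.8% of all genes. For surgery there were 4 in air and 9 under ozone, beside 20.2% and 31.2%. Their part in the results was not tested. Each result was also fitted in 2 other ways, given where they end a call, one with the marker sum as a covariate and one without the 3 libraries richest in these markers (SHAM ozone 18, ADREX ozone 81 and 82). Values of single genes below are the authors' normalized counts, read counts divided by 1 size factor per library.

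Nags, which makes the activator of Cps1, passed in no comparison. Its means were 912 ± 277 in ADREX ozone, 894 ± 236 in ADREX air, 984 ± 197 in SHAM ozone and 795 ± 194 in SHAM air (SD, n = 4 each), and all neighbouring groups overlapped. Log2 changes were -0.15 ± 0.25 for ADREX against SHAM under ozone and 0.16 ± 0.25 in air, with intervals of -0.68 to 0.39 and -0.38 to 0.69.

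Cps1, which catalyses the committed step of the cycle, was lower in ADREX than in SHAM livers under ozone. Cps1 had 69428, 76114, 79220.1 and 69353 in ADREX ozone libraries and 149697, 161354, 162997 and 149407 in SHAM ozone libraries. All 4 ADREX ozone libraries lay below all 4 SHAM ozone libraries, with means of 73529 ± 4944 in ADREX ozone and 155864 ± 7319.9 in SHAM ozone (SD, n = 4 each). Cps1 fell by 1.09 on the log2 scale (SE 0.23, adjusted p = 0.00691), 2.12-fold. In air the ADREX values were 101064, 67938, 99687 and 130309 and the SHAM values 99164, 127417, 104488 and 167709. These overlapped, and the log2 change of -0.33 ± 0.23 (SE) did not pass (adjusted p = 0.422). It was -0.16 without ADREX air 66 and -0.17 without SHAM air 4. The order of the group means, from high to low, was SHAM ozone, SHAM air, ADREX air and ADREX ozone, and each neighbouring pair overlapped. Cps1 alone took 0.456 to 1.21% of all reads of a library.

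Otc, the mitochondrial enzyme that forms citrulline, varied widely in every group and passed in no comparison. It had 3277, 11341, 9700.2 and 5404 in ADREX ozone, 10648, 3694, 5328 and 11749.8 in ADREX air, 8135, 7893, 17977 and 10256 in SHAM ozone and 8753, 8254, 23592 and 10787 in SHAM air libraries. The coefficient of variation within a group was 42.7 to 56.4%, and all neighbouring groups overlapped. Its log2 changes for ADREX against SHAM were -0.65 ± 0.45 under ozone and -0.73 ± 0.45 in air (adjusted p = 0.339 and 0.369), with intervals from -1.61 to 0.31 and from -1.68 to 0.23. Single libraries moved these values: under ozone the change was -0.31 without ADREX ozone 81 and -0.39 without SHAM ozone 19, and in air it was -0.41 without ADREX air 66 and -0.39 without SHAM air 3. A level of Otc more than 2-fold lower in ADREX is within both intervals.

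Ass1, the enzyme that brings the nitrogen of aspartate into the cycle, was also lower in ADREX under ozone. It had 9636, 9064, 10883 and 8737 in ADREX ozone libraries and 20305, 17419.7, 16214 and 25352 in SHAM ozone libraries. The groups did not overlap, and Ass1 fell by 1.03 on the log2 scale (SE 0.30, adjusted p = 0.0356), 2.05-fold. In air the values were 10389.6, 4044, 10625 and 15403 in ADREX libraries and 16841, 10367, 13965 and 13848 in SHAM libraries. ADREX air 66 was far below the others and the groups overlapped (log2 -0.57 ± 0.30, adjusted p = 0.294). Without ADREX air 66 the change was -0.18 ± 0.21. Its group means ran in the same order as those of Cps1, with overlap between neighbours.

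Cps1 and Ass1 were 2 of 7 members called for ADREX against SHAM under ozone, in a comparison in which 12.5% of the 12791 genes tested were called. Non-overlapping groups were found for 3 members, Cps1, Ass1 and Arg1, and for 20.5% of all genes tested. At an unadjusted p under 0.05 there were 5 of 7 members, beside 31.2% of all genes. The members' median log2 change was -0.72, beside 0.11 over all genes tested, and 6 of 7 were negative. Of 8 hepatocyte markers tested, Apoa1 rose, none fell, and the median log2 change was -0.21. In bulk liver RNA, fewer cells of a type and less RNA per cell cannot be told apart. Of 8 markers of Kupffer cells, the liver's resident macrophages, 3 rose (Clec4f, C1qa and C1qb), and their summed level was 564 to 1107 reads per 1000000 in ADREX ozone and 399.5 to 604 in SHAM ozone libraries. Of 8 lymphocyte markers 3 were tested, of which Cd8a rose and all 3 were positive, with a median of 1.27. The summed level of the 8 was 31.9 to 42.8 reads per 1000000 in ADREX ozone and 15.8 to 29.9 in SHAM ozone libraries, without overlap. Most of that sum was Cd4, with a median of 22.6 reads per 1000000 over the 16 libraries, and the other listed markers had 0.08 (Cd3d) to 1.97 (Cd8a). The part of these cells in the result was not tested. Without those 3 neural-rich libraries, the changes of Cps1 and Ass1 were -1.05 and -1.06, with adjusted p = 0.0789 and 0.18. With no filter on low values the adjusted p was 0.101 for Cps1 and 0.0555 for Ass1. Ass1 also missed the threshold with the neural marker sum as a covariate (0.0624), without SHAM ozone 17 (0.085) or 20 (0.111), and without ADREX ozone 81 (0.0629), 82 (0.0758), 83 (0.0531) or 84 (0.0641).

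Asl, which releases arginine and fumarate, was higher in ADREX than in SHAM livers in air. In air it had 7564, 6074, 4116 and 8987 in ADREX libraries and 2784, 2449, 2484 and 3514 in SHAM libraries. Every ADREX air library lay above every SHAM air library, and Asl rose by 1.21 on the log2 scale (SE 0.24, adjusted p = 0.0124), 2.31-fold. It passed in all 29 alternative settings, with adjusted p of at most 0.0443. It was the 1 of 7 members called in this comparison, in which 3.53% of all genes were called, and the 1 member whose groups did not overlap, against 9.26% of all genes. At an unadjusted p under 0.05 it was again the 1 member, beside 20.2% of all genes. Markers of cholangiocytes, the cells that line bile ducts, also moved in this comparison: of 4 tested, all 4 were positive and Epcam rose, with a median of 1.01. The summed level of that list was 16.2 to 23.9 reads per 1000000 in ADREX air and 5.14 to 10.6 in SHAM air libraries, without overlap. These were low counts: over the 16 libraries Epcam had a median of 8.12 reads per 1000000, and the other listed markers 0.23 (Krt7) to 1.79 (Krt19). Of 10 pericentral hepatocyte markers tested none passed with limma and 5 had an unadjusted p under 0.05, with a median of 0.76. The part of these cells in the result was not tested. The other 6 members ranged in log2 change from -0.73 (Otc) to 0.16 (Nags). Under ozone Asl had 5729.7, 8939, 11358 and 7988 in ADREX libraries and 5247, 4729, 4423 and 6853 in SHAM libraries. Here ADREX ozone 81 fell within the SHAM range, and the change of 0.66 ± 0.24 did not pass (adjusted p = 0.0851). It passed with array quality weights (0.0472) and without ADREX ozone 81 (0.0446). Group means of Asl ran from ADREX ozone (8504 ± 2331) through ADREX air (6685 ± 2085) and SHAM ozone (5313 ± 1082) to SHAM air (2808 ± 494), and only the last pair of neighbours did not overlap (SD, n = 4 each).

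Arg1 under ozone averaged 15065 ± 1269 in ADREX and 25017 ± 3806 in SHAM (SD, n = 4 each). The groups did not overlap, and the log2 change was -0.72 ± 0.32 (adjusted p = 0.137). It passed without ADREX air 66 (0.023), in the fit to the ozone libraries alone (0.0275) and with DESeq2 (0.0435). In air, Arg1 averaged 10617 ± 5761 in ADREX and 13303 ± 924 in SHAM, a change of -0.53 ± 0.32 that was -0.09 without ADREX air 66. Group means of Arg1 ran from SHAM ozone through ADREX ozone and SHAM air to ADREX air, and only the highest pair of neighbours did not overlap.

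Oat, the pericentral ornithine enzyme, had 3548, 4694, 2871 and 2111 in ADREX ozone libraries and 4312, 4789, 8029 and 7308 in SHAM ozone libraries. ADREX ozone 82 lay within the SHAM range, and the log2 change was -0.90 ± 0.31 (adjusted p = 0.0643). The adjusted p was 0.043 with TMM scaling, 0.0446 with median-of-ratios scaling, 0.0406 with edgeR and 0.0151 with DESeq2. It was 0.0311 without ADREX air 66, 0.0452 without ADREX air 67 and 0.0457 without ADREX ozone 82. In air Oat averaged 4868 ± 2007 in ADREX and 4694 ± 393 in SHAM (log2 -0.05 ± 0.31). Its group means ran from SHAM ozone through ADREX air and SHAM air to ADREX ozone, and neighbours overlapped.

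**Figure D1:**
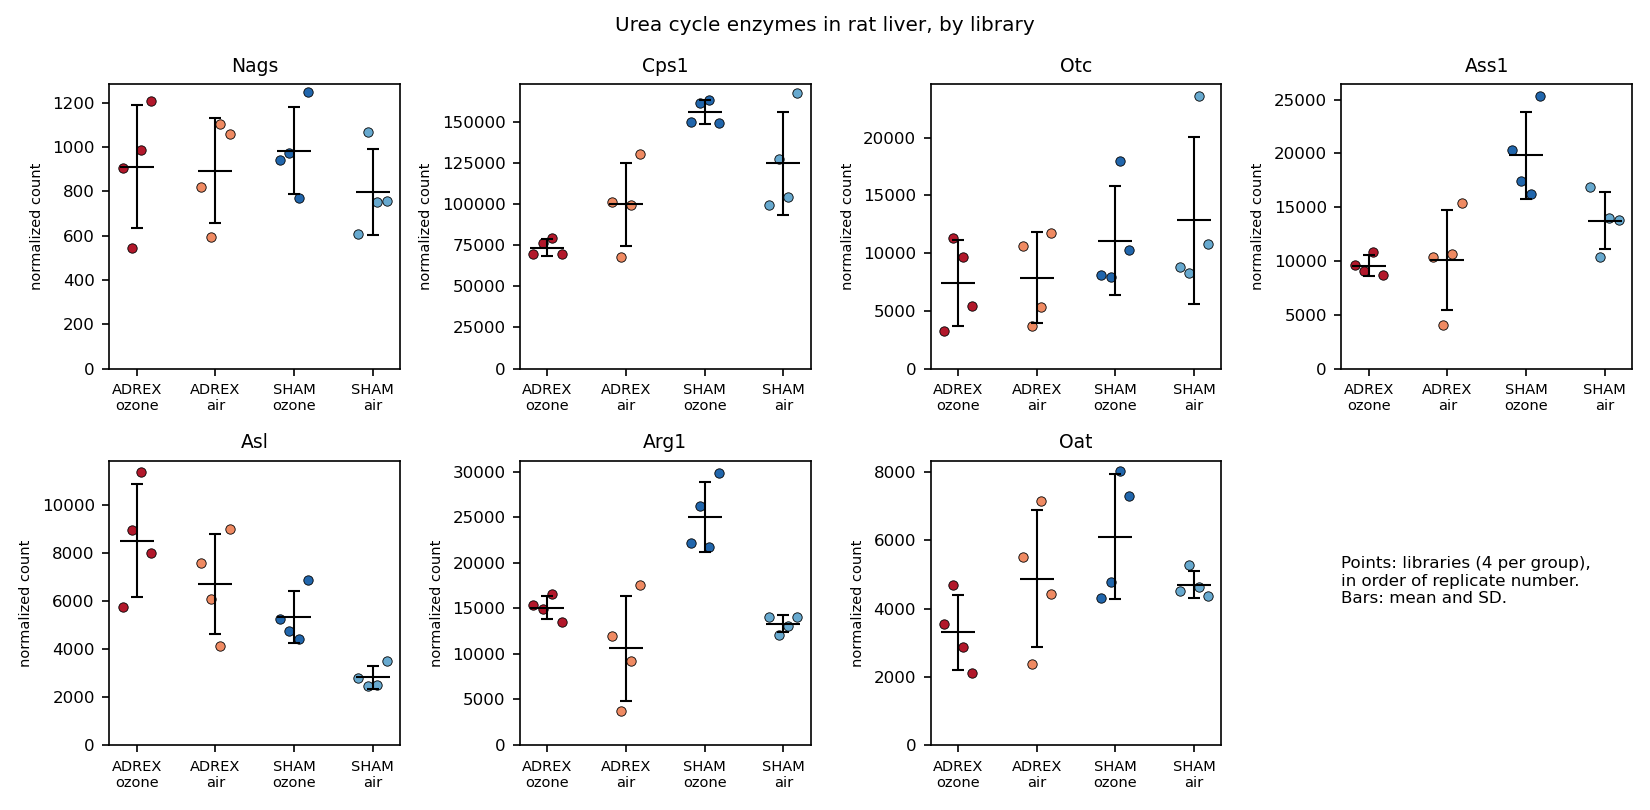
Normalized counts (linear axes from 0) of the 7 urea cycle genes in each of the 16 libraries, by group; points are libraries and bars the mean and SD (n = 4). Cps1 and Ass1 in the 4 ADREX ozone libraries lie below all SHAM ozone libraries, while Asl in every ADREX air library lies above every SHAM air library.

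Ozone against air in SHAM rats asks what the exposure did with the adrenal glands in place. No member passed over all genes with limma, in a comparison in which 1.58% of genes were called, and 2 of 7 had an unadjusted p under 0.05, against 18.4% of all genes. Those 2 were Asl and Arg1, and edgeR called 0 and DESeq2 called 1 member. Arg1, the enzyme that forms urea, had 22186, 26239.6, 21781 and 29863 in SHAM ozone libraries and 13997, 12099, 13058 and 14058 in SHAM air libraries. All 4 ozone libraries lay above all 4 air libraries, and the log2 change was 0.90 ± 0.32 (SE, 1.87-fold, adjusted p = 0.158). Asl likewise did not overlap, with means of 5313 ± 1082 in SHAM ozone and 2808 ± 494 in SHAM air and a log2 change of 0.91 ± 0.24 (1.89-fold, adjusted p = 0.0693). These were 2 of 7 members whose groups did not overlap, against 11.1% of all genes. The ADREX libraries enter the shared estimate of the spread, and the results changed when some were left out: Arg1 had adjusted p = 0.031 without ADREX air 66, and Asl had 0.0396 without ADREX air 67. With a fit to the 8 SHAM libraries alone the values were 0.0192 for Arg1 and 0.0416 for Asl.

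Ass1, Cps1, Oat and Nags had positive log2 changes of 0.53 ± 0.30, 0.35 ± 0.23, 0.33 ± 0.31 and 0.31 ± 0.25 with ozone in SHAM, with adjusted p from 0.36 to 0.571. Otc had -0.16 ± 0.45 (adjusted p = 0.875). The members' median was 0.35, beside 0.01 over all genes, and 6 of 7 were positive. The 7 genes together took 1.43, 1.67, 1.51 and 1.55% of reads in SHAM ozone libraries and 1.03, 1.11, 1.1 and 1.28% in SHAM air libraries. This share was higher in each SHAM ozone library than in any SHAM air library, and Cps1 made up 64.9 to 72.2% of it in SHAM ozone and 64.1 to 78.0% in SHAM air.

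In ADREX rats no member passed for ozone against air with limma, edgeR or DESeq2, in a comparison in which limma called 0.125% of all genes. Arg1 alone had an unadjusted p under 0.05 (1 of 7 members, against 17.8% of genes). It had 15329.6, 14938, 16536 and 13458 in ADREX ozone libraries and 11943, 3755, 9176 and 17593 in ADREX air libraries. The air libraries spanned a 4.68-fold range around the tight ozone libraries, and the log2 change of 0.70 ± 0.32 had an adjusted p of 0.264. Without ADREX air 66 the change was 0.27. Cps1 and Oat had negative changes of -0.40 ± 0.23 and -0.51 ± 0.31, and Asl a positive one of 0.36 ± 0.24 (adjusted p = 0.372, 0.405 and 0.467). The summed share of reads was 0.744, 1.02, 0.941 and 0.711% in ADREX ozone and 1.11, 0.671, 0.913 and 1.29% in ADREX air libraries, which overlapped. No member had groups that did not overlap here, beside 9.97% of all genes.

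Whether the response to ozone differed with the adrenal glands was tested as the ADREX effect minus the SHAM effect. No member passed with limma, edgeR or DESeq2, and limma called 0.109% of all genes. Cps1 alone had an unadjusted p under 0.05 (1 of 7 members, against 12.9% of genes), with a difference of -0.76 ± 0.32 (adjusted p = 0.338). Its 95% interval ran from -1.44 to -0.07. Oat had -0.84 ± 0.43 (interval -1.76 to 0.07) and Asl -0.55 ± 0.35 (interval -1.28 to 0.18). The remaining differences were -0.46 for Ass1, -0.30 for Nags, -0.20 for Arg1 and 0.07 for Otc, with SE of 0.36 to 0.64. The 2 ozone comparisons and the 2 surgery comparisons share libraries, so their changes are not independent of each other.

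**Figure D2:**
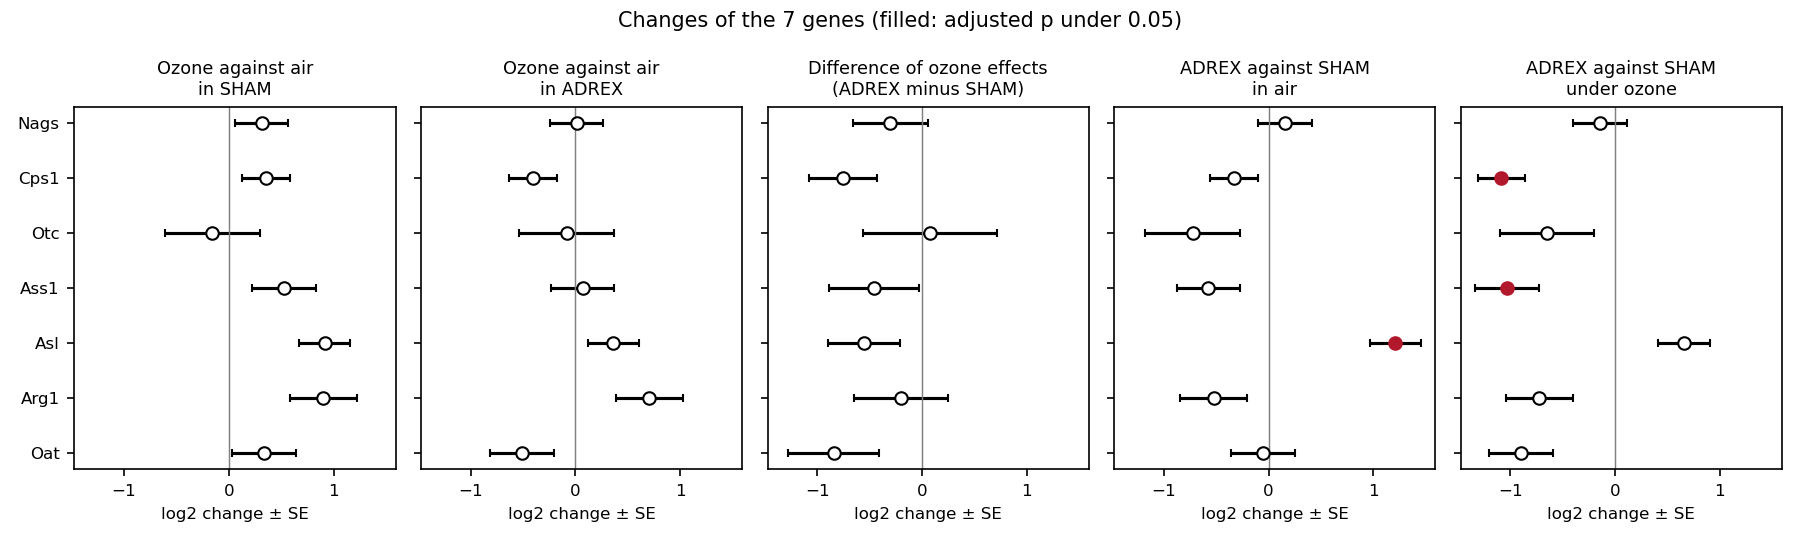
Log2 change with its SE for each gene in the 5 comparisons, from one fit to all 16 libraries; filled points passed the threshold (adjusted p under 0.05). The filled points are Cps1 and Ass1, lower in ADREX under ozone, and Asl, higher in ADREX in air.

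Part of the variation ran along single libraries. ADREX air 66 was the lowest ADREX air library in 6 of the 7 genes, Asl being the exception, and the lowest of all 16 libraries in 3. Its members lay at a median of -0.91 on the log2 scale from their means over the 16 libraries, and its 0.671% share of reads was the lowest of all. ADREX air 68 was the highest of its group in 5 genes. In SHAM ozone 20 all 7 genes were above their mean over the 16 libraries, with a median of 0.52.

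**Figure D3:**
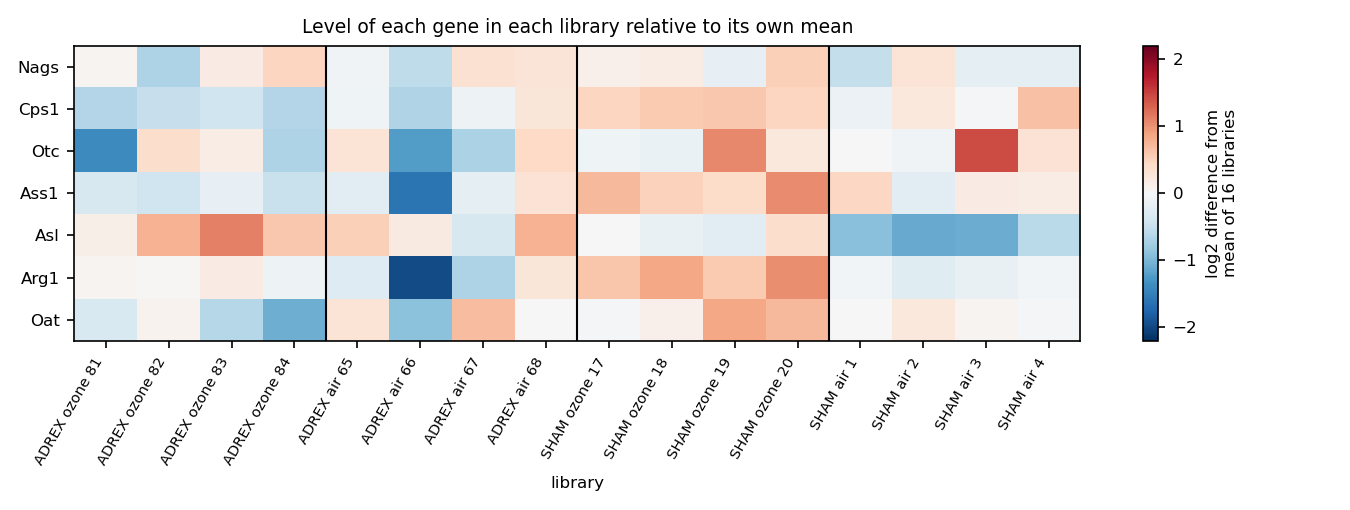
Log2 difference of each gene in each library from that gene's mean over the 16 libraries (red above, blue below). ADREX air 66 is blue in all genes but Asl, SHAM ozone libraries are mostly red, and Asl is blue in all 4 SHAM air libraries.

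Ratios within a library do not depend on how libraries are scaled to each other. Those given here were chosen after the values were seen and carry no test. The ratio of Asl to Ass1, the enzymes of consecutive steps, was 0.595, 0.986, 1.04 and 0.914 in ADREX ozone and 0.258, 0.271, 0.273 and 0.27 in SHAM ozone libraries. In air it was 0.728, 1.5, 0.387 and 0.583 in ADREX and 0.165, 0.236, 0.178 and 0.254 in SHAM libraries. All 8 ADREX libraries lay above all 8 SHAM libraries, and the 4 SHAM ozone libraries were nearly equal. The ratio of Arg1 to Cps1 was 0.205 ± 0.0124 in ADREX ozone and 0.1 ± 0.0347 in ADREX air, which did not overlap, and 0.161 ± 0.0284 in SHAM ozone and 0.111 ± 0.0265 in SHAM air, which did (SD, n = 4 each).

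**Figure D4:**
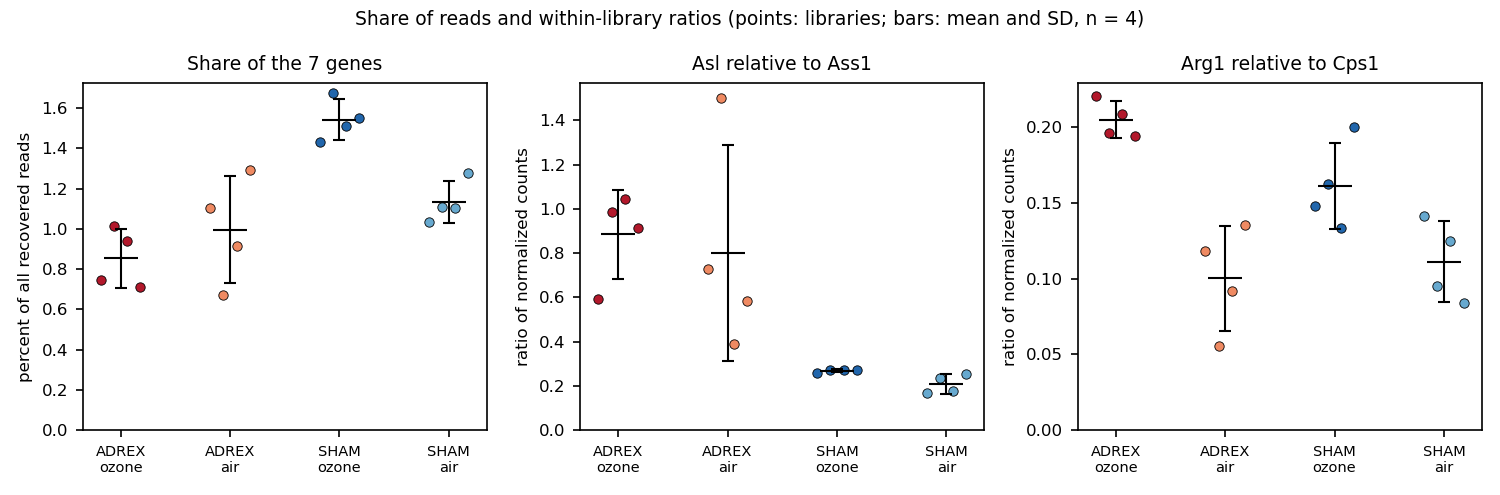
Percent of all recovered reads taken by the 7 genes together, and the ratios of normalized counts of Asl to Ass1 and of Arg1 to Cps1, per library with group means and SD (n = 4, axes from 0). The 4 SHAM ozone libraries take the highest share, and Asl relative to Ass1 is higher in every ADREX library than in every SHAM library.

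Genes that feed or drain the cycle were listed by role. Among 8 carriers of ornithine, aspartate and arginine, 1 rose with ozone in SHAM and 2 were lower in ADREX under ozone, and none passed in the other comparisons. Over all genes tested, limma called 1.58% for ozone in SHAM, 3.53% for surgery in air and 12.5% for surgery under ozone, the background for this and the following lists. Slc25a15, the carrier that returns ornithine to mitochondria for Otc, had 47095, 38017, 50523 and 44857 in SHAM ozone and 8941, 8390.0, 11188 and 13992 in SHAM air libraries. The groups were far apart, and Slc25a15 rose 4.31-fold (log2 2.11 ± 0.33, adjusted p = 0.00611), a call that held in all 29 alternative settings. In ADREX it had 17503, 23041, 27872 and 10155 under ozone and 20217, 13224, 9799 and 30939.8 in air, with full overlap (log2 0.12 ± 0.33). The difference between the 2 ozone effects, -1.98 ± 0.47, did not pass (adjusted p = 0.116), although it did with array quality weights (0.0279) and with DESeq2 (0.00195). Under ozone Slc25a15 was lower in ADREX than in SHAM by a log2 change of -1.29 ± 0.33 (adjusted p = 0.0205), which missed the threshold without those 3 neural-rich libraries (0.0869), without SHAM ozone 17 (0.0548), 19 (0.0514) or 20 (0.0531) and without ADREX ozone 84 (0.052). Slc7a2, a cationic amino acid transporter of the hepatocyte membrane, averaged 5669 ± 1971 in ADREX ozone and 11859.7 ± 1553 in SHAM ozone (log2 -1.13 ± 0.29, adjusted p = 0.0211). In air Slc7a2 averaged 7883 ± 2350 in ADREX and 6480 ± 2487 in SHAM. Its call was lost with the neural marker sum as a covariate (0.0624), without those 3 libraries (0.143), without SHAM ozone 17 (0.0659) or 20 (0.0533) and without ADREX ozone 82 (0.0675).

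Of 13 tested genes of nitrogen supply and urea release, 1 rose with ozone in SHAM, 1 fell in ADREX in air, and under ozone 1 was higher and 2 were lower in ADREX (over all genes, 1.58%, 3.53% and 12.5% were called). Got1, the cytosolic aspartate aminotransferase, averaged 16304 ± 3053 in SHAM ozone and 3072 ± 1607 in SHAM air (5.69-fold, adjusted p = 0.00611). In ADREX it averaged 8062 ± 3299 with ozone and 7654 ± 4279 in air (log2 0.18 ± 0.40). The difference between these ozone effects, -2.33 ± 0.56, did not pass (adjusted p = 0.118), although it did with array quality weights (0.0303) and with DESeq2 (0.00369). Glud1, the mitochondrial glutamate dehydrogenase that frees ammonia, was lower in ADREX in both exposures. In air it had 4898, 4680.1, 8710.3 and 6573 in ADREX and 15822, 20776, 11198 and 15433 in SHAM libraries, without overlap (log2 -1.36 ± 0.22, adjusted p = 0.00338, called in all 29 alternative settings). Under ozone it averaged 6632 ± 1323 in ADREX and 12840.4 ± 1529 in SHAM (log2 -0.97 ± 0.22, adjusted p = 0.0111). Gpt, an alanine aminotransferase, averaged 871 ± 193 in ADREX ozone and 2469.7 ± 379.9 in SHAM ozone (log2 -1.52 ± 0.35, adjusted p = 0.0108). In air Gpt averaged 1137 ± 604 in ADREX and 2144 ± 345 in SHAM, which overlapped, and it did not pass in the main test. It passed in air with array quality weights (0.041) and without ADREX air 68 (0.0382). Aqp9, a channel for glycerol and urea, averaged 4166 ± 587 in ADREX ozone and 2434 ± 220.0 in SHAM ozone (log2 0.77 ± 0.16, adjusted p = 0.00573). In air Aqp9 averaged 3412 ± 697 in ADREX and 3301 ± 362 in SHAM. Without those 3 neural-rich libraries, the adjusted p under ozone was 0.133 for Glud1, 0.0861 for Gpt and 0.055 for Aqp9.

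The enzymes that recycle the fumarate released by Asl are Fh, which hydrates it to malate, and the malate dehydrogenases Mdh1 and Mdh2. Fh had 7842, 6748, 4923 and 7923 in ADREX air and 2714, 2343, 2804 and 2779 in SHAM air libraries. The groups did not overlap, and Fh rose by 1.34 on the log2 scale (SE 0.26, adjusted p = 0.00867, called in all 29 alternative settings). Under ozone Fh averaged 7228 ± 3468 in ADREX and 3787 ± 218 in SHAM (log2 0.81 ± 0.26, adjusted p = 0.0491). That call stood at the threshold and was lost in 20 of 29 settings, with adjusted p up to 0.21, among them the neural marker sum as a covariate (0.126) and the fit without the 3 neural-rich libraries (0.21). It was lost with any 1 library left out (0.0501 to 0.126) except ADREX air 67 and ADREX ozone 84. Mdh1, the cytosolic form, averaged 6536 ± 2672 in ADREX ozone and 15171 ± 872 in SHAM ozone (log2 -1.31 ± 0.32, adjusted p = 0.0163). In air Mdh1 averaged 6626 ± 2226 in ADREX and 7036 ± 3027 in SHAM, so SHAM ozone was the group that stood apart. For ozone in SHAM, Mdh1 did not pass in the main test. It passed with array quality weights (0.0108), with DESeq2 (0.0174), without SHAM air 3 (0.0243) and without ADREX ozone 84 (0.0433). Mdh2 passed in no comparison.

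**Figure D5:**
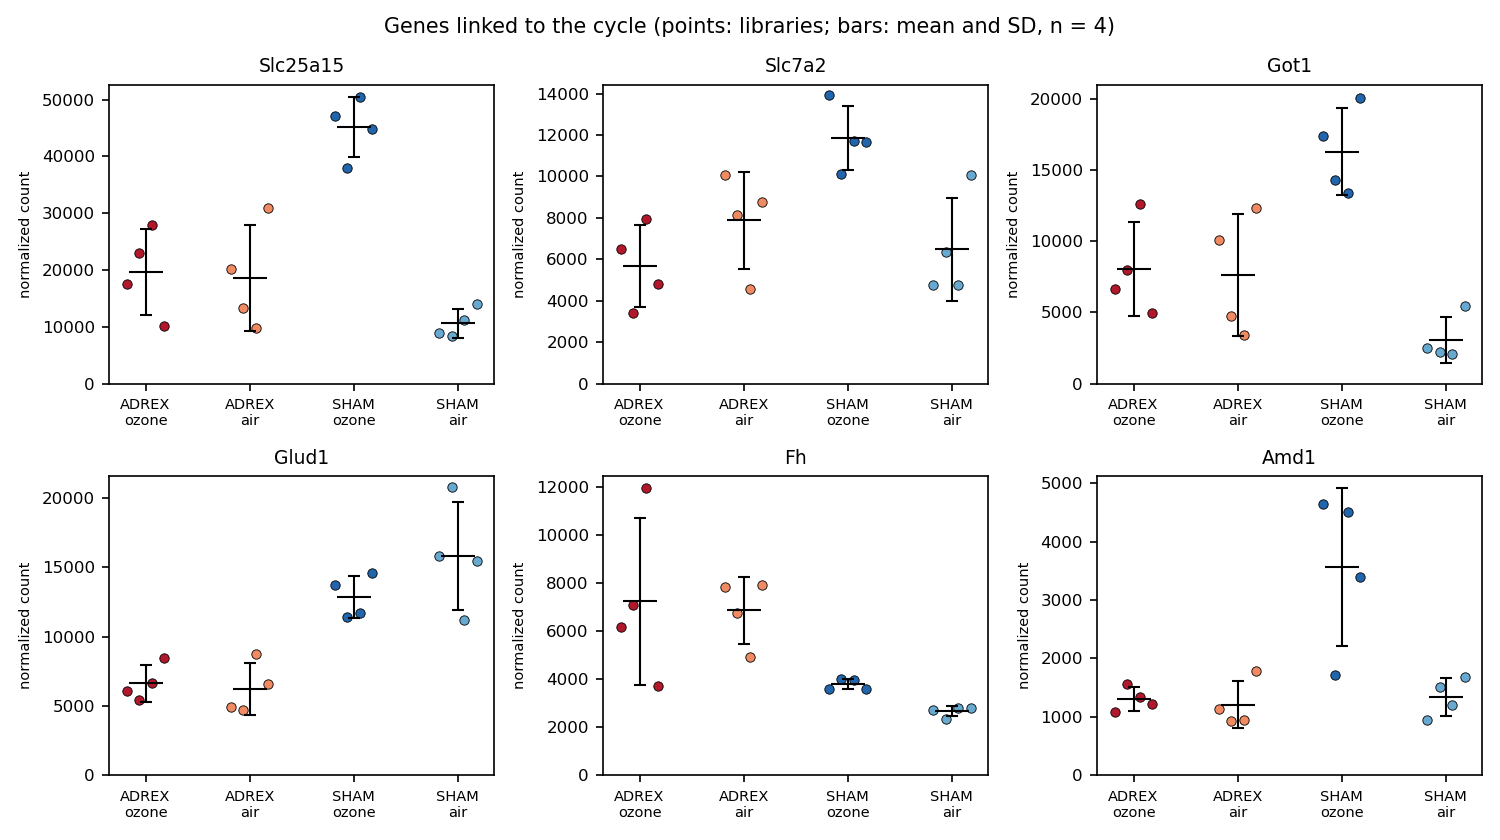
Normalized counts (linear axes from 0) of 6 genes linked to the cycle, per library with group means and SD (n = 4). Slc25a15 and Got1 in SHAM ozone lie above all SHAM air libraries, Glud1 is lower and Fh higher in ADREX air than in SHAM air.

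The branches that use arginine, ornithine and proline had 17 tested members, of which 3 rose with ozone in SHAM, 1 fell in ADREX in air, and under ozone 3 were higher and 2 lower in ADREX (over all genes, 1.58%, 3.53% and 12.5% were called). The 3 that rose belong to polyamine synthesis from ornithine. Odc1, ornithine decarboxylase, averaged 1461 ± 268 in SHAM ozone and 812 ± 66.4 in SHAM air (log2 0.83 ± 0.18, adjusted p = 0.0286). Azin1, which protects that enzyme from its antizymes, averaged 1925 ± 419 in SHAM ozone and 806 ± 163 in SHAM air (log2 1.25 ± 0.24, adjusted p = 0.0163). Amd1, adenosylmethionine decarboxylase, averaged 3563 ± 1355 in SHAM ozone and 1333 ± 321 in SHAM air (log2 1.35 ± 0.29, adjusted p = 0.0296). Each of these calls was lost without SHAM air 2 (0.103 for Odc1, 0.0738 for Azin1 and 0.0748 for Amd1), without SHAM ozone 17 (0.106, 0.0743 and 0.121 in that order) and without SHAM ozone 20 (0.115, 0.0734 and 0.104). Without SHAM air 1 the value was 0.0508 for Odc1 and 0.0679 for Amd1, without SHAM air 4 it was 0.0607 for Odc1, and without SHAM ozone 19 it was 0.0613 for Amd1. In the fit to the 8 SHAM libraries alone Amd1 had 0.0643.

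Under ozone Amd1 averaged 1298 ± 206 in ADREX, against the same SHAM ozone mean (log2 -1.37 ± 0.29, adjusted p = 0.00734, called in all 29 alternative settings). Sat1, which acetylates polyamines for breakdown, averaged 2568 ± 645 in ADREX ozone and 1202 ± 182 in SHAM ozone (log2 1.07 ± 0.22, adjusted p = 0.00614, and 0.0918 without those 3 neural-rich libraries). Prodh, proline dehydrogenase, was lower in ADREX in both exposures. It averaged 675 ± 209 in ADREX air and 1712 ± 314 in SHAM air (log2 -1.39 ± 0.30, adjusted p = 0.0174), a call lost with the neural marker sum as a covariate (0.0568), without SHAM air 2 (0.0523) or 4 (0.0656) and without ADREX air 66 (0.0612). Under ozone Prodh averaged 815 ± 350 in ADREX and 1675 ± 295 in SHAM (log2 -1.13 ± 0.30, adjusted p = 0.0222), a call lost with that covariate (0.0563), without the 3 libraries (0.0675), without SHAM ozone 20 (0.0746) and without ADREX ozone 82 (0.063) or 83 (0.0657). Oaz2, an antizyme, and the sparsely counted Aldh18a1, of proline and ornithine synthesis, were higher in ADREX under ozone (adjusted p = 0.0334 and 0.039). Oaz2 averaged 175 ± 41.6 in ADREX ozone and 86.7 ± 8.49 in SHAM ozone, beside 124 ± 40.1 in ADREX air and 171 ± 74.0 in SHAM air. The Oaz2 call was lost in 9 of 29 settings (0.0537 to 0.156), among them without the 3 neural-rich libraries (0.156), without any 1 SHAM ozone library and without ADREX ozone 82 or 84. The Aldh18a1 call was lost in 12 of 28 (0.0543 to 0.123), among them with the neural marker sum as a covariate (0.121), without the 3 neural-rich libraries (0.114), without SHAM ozone 17, 19 or 20 and without any 1 ADREX ozone library.

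Among regulators of the cycle, Gcgr, the glucagon receptor, averaged 468 ± 47.6 in ADREX air and 831 ± 131 in SHAM air (log2 -0.82 ± 0.17, adjusted p = 0.0137). That call was lost without SHAM air 2 (0.0523) or 4 (0.0508) or ADREX air 66 (0.053). Under ozone Gcgr averaged 594 ± 143 in ADREX and 531 ± 61.5 in SHAM, which overlapped, and it did not pass. All SHAM ozone libraries lay below all SHAM air libraries, but for ozone in SHAM Gcgr did not pass in the main test. It passed with array quality weights (0.0261), with DESeq2 (0.0197), without SHAM air 3 (0.0456) and without ADREX ozone 84 (0.036). The glucocorticoid receptor gene Nr3c1 and Sirt5, whose product activates Cps1, passed in no comparison.

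The genes whose log2 values followed each member most closely over the 16 libraries were picked from 8578 candidates, and the correlations describe these libraries, which share surgery and exposure within groups. For Cps1 they were Megf9, Igsf11 and Etnppl (r of 0.88, 0.86 and 0.86), for Ass1 Gpt, Gart and Arg1 (0.91, 0.88 and 0.88), and for Arg1 Ass1, Bckdhb and Ahcy (0.88, 0.84 and 0.84). Asl was closest to Ppm1k, Fbxw2 and Cyp17a1 (0.86, 0.86 and 0.85), Otc to Pphln1, St3gal3 and Acsl4 (0.87, 0.85 and 0.84), Nags to Lrp10, Coq5 and Gpn2 (0.84, 0.79 and 0.79) and Oat to Rhbg, Cyp20a1 and Sqrdl (0.87, 0.82 and 0.78). The mean of the 7 standardised genes was close to Aass, Dhdds, Ell2, Pttg1ip, Chpt1, Ahcy and Gart (0.82 to 0.89). Within groups, the correlation of Ass1 with Arg1 (r = 0.93) was the highest of all pairs of members, which ranged down to -0.17 for Asl with Oat. Both genes were far below their means over the 16 libraries in ADREX air 66 (log2 -1.61 for Ass1 and -1.96 for Arg1). The correlation without that library was not computed.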

How the data were processed

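Liver mRNA was sequenced in 16 libraries, 4 per group, grouped by their titles. The submitters' processing notes name Partek, DESeq2 and build rn6, without versions. No aligner or annotation is named there. The values the authors deposited are a signal that rises in 1 fixed step per library, as read counts divided by a size factor do; no label states the step's origin. Dividing by each column's step recovered whole reads (100% of values within 0.01 of a whole number), 8372891 to 14096246 per library.

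Values were tested as log2(value + 1) by the limma-trend method (limma 3.58.1, run under R 4.3.3; two-sided) over 12791 genes with a mean of at least 14.7 (1 count in 1000000), with 4 group means and 16 libraries. Adjusted p-values are Benjamini-Hochberg over all genes tested, under 0.05 called. Errors of log2 changes are SE. Fold changes are on the log2(value + 1) scale. On the recovered reads, edgeR 4.0.16 called 176 genes and DESeq2 1.42.0 called 540 for ozone in SHAM. These and other settings were alternatives. On simulated counts for ozone in SHAM, the test recovered 97% of 100 genes changed 4-fold and 27% of 100 changed 2-fold. Of the 12791 genes tested, 8 of those left unchanged were called falsely. All 7 members are named. Linked genes are named where they passed in any comparison, except that some results are not reported here. Genes most like each member are the 3 with the highest Pearson correlation, and 8 for their mean, among genes with a mean of at least 73.4. The members and lists were chosen with earlier results of these data known. No coordinates are in the table, and levels were not compared per transcript length.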

Additional observations from a re-analysis of the deposited data

Results flagged for a closer look

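Otc in SHAM air 3 had a normalized count of 23592, against 8254 to 10787 in the other 3 SHAM air libraries, a gap of 0.835 of the group's range. It was 1 of 28 combinations of gene and group examined, and chance alone flags about 1 in 20. Without SHAM air 3, Otc in ADREX against SHAM in air had a log2 change of -0.39 ± 0.44 (SE, adjusted p = 0.59), against -0.73 ± 0.45 (0.369) with it. No member's ozone effect differed between ADREX and SHAM past the threshold.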

How the results depend on the processing

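No paired analysis was possible because the groups share no replicate numbers. Over 29 alternative settings no member's called change reversed its sign, and of 1008 recomputed member changes 979 kept their side of the threshold. Most of these changes were uncalled in the main test. Calls were lost in 11 cases and gained in 18. The Cps1 call was lost in 2 of 29 settings, the Ass1 call in 9 and the Asl call in 0. Signs differed in 37 cases, none called either way. For ozone in SHAM, 1 member was called with array quality weights, 2 in the fit to the compared groups alone, 1 with DESeq2, and 0 to 1 with single libraries left out. For ADREX against SHAM under ozone, 0 members were called with no filter on low values, 1 with the neural marker sum as a covariate, 0 without the 3 libraries richest in neural markers, 4 with DESeq2, and 1 to 4 with single libraries left out. The causes were not tested.

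Counts over all genes were 202 (ozone, SHAM), 16 (ozone, ADREX), 14 (the difference between them), 451 (surgery, air) and 1601 (surgery, ozone). In this order they were 1133, 330, 182, 1456 and 3414 with array quality weights. DESeq2 gave 540, 570, 248, 835 and 2193, and edgeR 176, 49, 24, 378 and 1585. With the neural covariate 22 genes differed and 194 were called in air. For ozone in ADREX the count was 36 with no filter, 26 with a pseudocount of 10 and 2 in the fit to the compared groups, which gave 212 for surgery in air. Without the 3 neural-rich libraries there were 107 calls for ozone in SHAM rats, 1 in ADREX rats and 479 for surgery under ozone. Leaving out single libraries gave 38 to 658, 0 to 50, 3 to 33, 194 to 1004 and 787 to 1848 in the order above. The share of calls that were higher was 48.2% for surgery under ozone and 33.3% after TMM scaling, 31.2% and 21.1% for ozone in ADREX, and 21.4% and 7.69% for the difference. In simulated data for ozone in SHAM, with the same spread beyond counting noise for all genes, the test recovered 27% of 2-fold changes.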

Other observations

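Markers of the 2 ends of the liver lobule were taken from lists that leave out the 7 members. Of 10 periportal markers tested, none was higher and 1 lower in ADREX under ozone, where 12.5% of all genes were called. Of the 10, 8 were negative, with a median log2 change of -0.19, beside -0.72 for the 7 members and 0.11 for all genes. The gene that fell was Etnppl, a lyase of phosphoethanolamine, which averaged 1523 ± 883 in ADREX ozone and 22087 ± 4226 in SHAM ozone (SD, n = 4 each, log2 -4.03 ± 0.53, adjusted p = 0.000404, called in all 29 alternative settings). In air Etnppl averaged 1461 ± 883 in ADREX and 8643 ± 4913 in SHAM (log2 -2.74 ± 0.53, adjusted p = 0.00925). Sds, serine dehydratase, rose with ozone in SHAM (log2 3.39 ± 0.56, adjusted p = 0.00766) and was higher in ADREX than in SHAM in air (log2 2.12 ± 0.56, adjusted p = 0.0482). The call in air was lost in 18 of 29 settings (0.051 to 0.151), among them with the neural marker sum as a covariate (0.123), without the 3 libraries richest in neural markers (0.0803) and without any 1 library except ADREX air 67 and ADREX ozone 83 or 84. The summed level of the periportal list was 4134 to 4768 reads per 1000000 in ADREX ozone and 4606 to 6019 in SHAM ozone libraries.

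Of 10 pericentral markers tested, 3 were higher in ADREX under ozone and none lower, beside 12.5% of all genes called, and 7 were positive, with a median of 0.80. In air none passed with limma, 8 were positive and 5 had an unadjusted p under 0.05, with a median of 0.76 beside 0.04 over all genes. For periportal markers in air 1 passed in each direction and 8 were negative, with a median of -0.26, beside 3.53% of all genes called. The 3 pericentral markers that were higher under ozone were Aldh1a1, a retinal dehydrogenase (log2 1.91 ± 0.40, adjusted p = 0.00686, called in all 29 alternative settings), Lect2, a secreted hepatocyte protein (1.03 ± 0.28, adjusted p = 0.0266), and the low-count Gstm3 (1.74 ± 0.50, adjusted p = 0.0313), whose reads near-identical family members may share. The Lect2 call was lost with the neural marker sum as a covariate (0.0943), without the 3 libraries richest in neural markers (0.192), without SHAM ozone 17 (0.0647) or 20 (0.0745) and without ADREX ozone 82 (0.0736) or 83 (0.0589). The Gstm3 call was lost in the fit to the ozone libraries alone (0.0598), without SHAM ozone 17 (0.0981) or 19 (0.0563) and without ADREX ozone 82 (0.0863), 83 (0.0927) or 84 (0.0563). The summed pericentral level was 6548 to 14063 reads per 1000000 in ADREX ozone and 5780.2 to 6910.0 in SHAM ozone libraries, which overlapped. Its part in the changes of the urea cycle genes was not tested.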
